A study of Mus musculus with 12 samples.

Results

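The 40 genes described here serve digestion and absorption at the intestinal brush border. They were chosen by name for what their products do, with earlier results of these data known, and all 40 were found among the 43432 genes of the count table. They fall into 5 roles: 8 genes of sugar digestion and transport, 8 brush border peptidases, 6 transporters of peptides and amino acids, 13 genes of lipid digestion, uptake and export, and 5 genes for vitamins, nucleosides and other work of the apical membrane.

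The absorptive enterocyte carries a dense carpet of microvilli, the brush border. Enzymes anchored there split disaccharides and peptides, and transporters in the same membrane take up the sugars, amino acids, vitamins and lipids that are set free. Absorbed fat is rebuilt into triglyceride at the endoplasmic reticulum and leaves the cell in chylomicrons that carry apolipoproteins. Tuft cells are rare chemosensory cells of the same epithelium and the main epithelial source of the cytokine IL-25. The gallbladder concentrates and stores bile and does not digest food, although its lining also bears an apical brush border.

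Bulk RNA sequencing was done on EpCAM+ epithelial cells of Flare25 mice, a strain that reports Il25 expression as red fluorescence. Cells of the gallbladder and of the proximal small intestine were separated into red (IL-25+) and not red (IL-25-) fractions, giving 4 groups of 3 libraries, called SI-pos, SI-neg, GB-pos and GB-neg. Every group, the IL-25- ones included, came from mice with this reporter, and the labels give no age or sex for any of them. The 6 gallbladder libraries are labelled as from mice that received fluorescent house dust mite material (HDM AF647) 1 day before collection and the small intestine libraries are not, while the protocol text of all libraries says homeostasis, so tissue and that label cannot be told apart. The labels do not say that libraries of a group came from separate mice, and p-values then measure the spread between these libraries.

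Libraries held 23703449 to 64736650 counts. The sort held up against marker genes: 8 tuft cell genes together summed to 25278 to 28988 CPM (counts scaled by the library total) in SI-pos and 25119 to 26467 CPM in GB-pos, against 81.3 to 234 CPM in SI-neg and 25.4 to 164 CPM in GB-neg. Il25, whose reporter set the gate, is itself on this list. Mitochondrially encoded genes took 12.1% to 17.2% of counts in SI-pos and 26.6% to 34.9% in SI-neg. SI-neg 2 stood apart in secretory cell genes, with 6 goblet cell markers summing to 43927 CPM against 13341 in SI-neg 1 and 4495 in SI-neg 3. SI-pos 3 held more plasma cell and T cell RNA than the other SI-pos libraries, the 4 plasma cell genes summing to 0.371, 1.78 and 68.3 CPM and the 6 T cell genes to 7.28, 2.59 and 35.3 CPM in SI-pos 1 to 3. GB-neg 1 stood apart from its group in the digestion genes and in some other lists, as described with the gallbladder values, and counts of called digestion genes that involve it are given with and without it. In bulk libraries, fewer cells of a type and less RNA per cell cannot be told apart.

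In SI-neg the 40 genes took 2.29%, 3.03% and 2.6% of all counts, and every gene was detected in every SI-neg library. Per kilobase of exon, the highest SI-neg level belonged to Apoa1, the main apolipoprotein of high-density lipoprotein, at 2296 ± 597 CPM per kb (SD, n = 3). Rbp2, which carries retinol inside the enterocyte, followed at 1793 ± 114 CPM per kb, and Anpep, the aminopeptidase that trims peptides from their amino end, at 1317 ± 158 CPM per kb. Fabp2, the intestinal fatty acid binding protein, stood at 1065 ± 469 CPM per kb, so that these 4 neighbours in the order overlap in part. The low end was made up of Dgat2 at 5.54, Slc1a1 at 4.8, Cd36 at 2.95 and Plb1 at 0.882 CPM per kb. The range from Apoa1 to Plb1 therefore covered more than 3 orders of magnitude within 1 functional set.

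The first comparison asked how IL-25+ cells of the small intestine differ from their IL-25- neighbours. Digestion genes were lower in the IL-25+ fraction almost throughout, yet most stayed well above 0. Of 40 genes tested, 36 were lower and 0 higher in SI-pos (edgeR quasi-likelihood test, Benjamini-Hochberg adjusted p under 0.05), where 18.8% of all 14647 genes tested were called lower and 18.1% higher. The number higher was 0 at an unadjusted p under 0.05 and 0 with DESeq2. Their median log2 fold change was -1.77, against -0.07 over all genes tested. Levels of SI-pos and SI-neg libraries did not overlap for 39 of the 40, the exception being Cd36. The share of all genes tested without overlap is not given here, so that count has no background beside it. When all 12 libraries shared 1 estimate of spread, 12 genes were called lower (12.8% of all genes), 11 of them among the 36, and with GB-neg 1 left out of that shared fit the count was 31 (12.6% of all genes). The call was made in each setting in which the gene was tested for 10 genes, among them Mgam, Slc2a2, Dpp4, Slc1a1, Slc7a7 and Tm4sf20. With the mitochondrial genes taken out, 37 were lower (19.4% of all genes), and without SI-pos 3, the library with more plasma cell and T cell RNA, 35 were (13.3%).

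Relative to its own SI-neg mean, the median gene stood at 32.1% in SI-pos 1, 26.8% in SI-pos 2 and 21.8% in SI-pos 3. In all 3 SI-pos libraries 29 of the 40 genes lay between 15% and 45%, a band chosen after the values were seen. The 11 outside it in at least 1 library were Mme, Mep1a, Slc6a19, Slc7a9, Slc3a1, Slc1a1, Plb1, Clps, Cd36, Dgat2 and Ada. Summed markers of goblet, Paneth and enteroendocrine cells were far lower on the same scale. The goblet list stood at 0.542% to 2.12% of its SI-neg mean over SI-pos 1 to 3, the Paneth list at 1.23, 1.18 and 4.96% and the enteroendocrine list at 3.84, 0.269 and 0.875%, while the digestion genes summed to 32.1, 28.2 and 21.3%. The T cell list, at 41.7, 14.8 and 202%, and the plasma cell list, at 4.29, 20.6 and 791%, were not lower than the digestion genes in every library. How far enterocytes or their RNA inside the IL-25+ gate contributed to the level of the digestion genes was not tested.

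**Figure D1:**
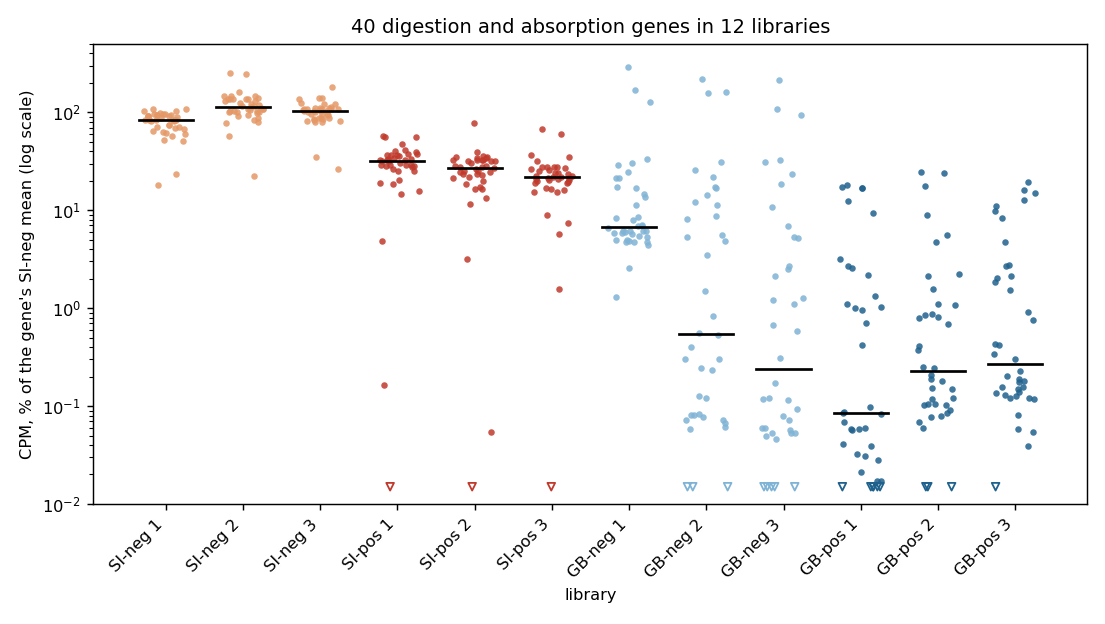
Level of each of the 40 genes in each of the 12 libraries, as percent of that gene's SI-neg mean (CPM, log axis), with open triangles for 0 counts and a black bar at the median. The SI-pos medians sit between 21.8% and 32.1%, the GB-pos medians under 1%, and GB-neg 1 lies above GB-neg 2 and GB-neg 3.

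All 8 genes of sugar digestion and transport were lower in SI-pos. Positions are from GENCODE M21 on GRCm38. Sis, sucrase-isomaltase (ENSMUSG00000027790, chr3:72888557-72967863), read 1892, 2025 and 2233 CPM in SI-neg 1 to 3 and 766, 577 and 332 CPM in SI-pos 1 to 3. SI-pos 1 was thus the highest and SI-pos 3 the lowest of the IL-25+ libraries, all under the lowest SI-neg library, with a log2 fold change of -1.76 ± 0.29 (SE, adjusted p = 0.00177). The sodium-glucose cotransporter gene Slc5a1, whose product drives apical glucose uptake (ENSMUSG00000011034, chr5:33104219-33162870), read 2432, 3304 and 2172 CPM in SI-neg against 766, 714 and 507 CPM in SI-pos, a change of -1.91 ± 0.30 (adjusted p = 0.00129). Mgam, maltase-glucoamylase, which completes the digestion of starch (ENSMUSG00000068587, chr6:40628831-40769123), read 1147, 1264 and 1152 CPM in SI-neg against 333, 302 and 197 CPM in SI-pos, a change of -1.99 ± 0.25 (adjusted p = 0.00043). The same order of the IL-25+ libraries, with SI-pos 3 lowest, was seen for both. Slc2a2, which encodes the glucose transporter GLUT2 (ENSMUSG00000027690, chr3:28697903-28731359), fell from 103 ± 2.67 to 31.0 ± 8.44 CPM (SD, n = 3, adjusted p = 0.00121). Khk, the ketohexokinase that starts fructose breakdown, fell from 119 ± 41.8 to 39.3 ± 5.42 CPM (adjusted p = 0.00152). The lactase gene Lct, the trehalase gene Treh and Slc2a5, the fructose transporter GLUT5, changed by -1.62, -1.63 and -1.76 on the log2 scale.

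The 8 peptidase genes were likewise all lower. Anpep (ENSMUSG00000039062, chr7:79821803-79861059) read 5589, 4731 and 6015 CPM in SI-neg and 1996, 1652 and 930.3 CPM in SI-pos, a log2 change of -1.71 ± 0.27 (adjusted p = 0.00145). It remained among the most abundant of the 40 genes in IL-25+ cells. Dpp4, dipeptidyl peptidase 4, which also inactivates incretin hormones (ENSMUSG00000035000, chr2:62330073-62412231), read 459.7, 608 and 489 CPM in SI-neg and 166, 123 and 79.4 CPM in SI-pos, a change of -1.99 ± 0.31 (adjusted p = 0.00121). The neprilysin gene Mme read 491, 1097 and 825 CPM in SI-neg and 379.8, 223 and 189 CPM in SI-pos, a change of -1.55 ± 0.39 (adjusted p = 0.0131). Here SI-pos 1 and SI-neg 1 lay closest, without crossing. Mep1a, the alpha subunit of the secreted and membrane-bound meprins, had the most negative change of the group at -3.06 ± 0.46 (adjusted p = 0.00106), and Mep1b, the beta subunit, changed by -1.79 ± 0.21. Enpep, Xpnpep2 and Naaladl1, further peptidases of the apical membrane, changed by -1.83, -1.78 and -2.16 on the log2 scale.

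Among the 6 transporters of peptides and amino acids, 5 were lower and the remaining one, Slc7a9, did not pass. Slc6a19, which encodes the neutral amino acid transporter B0AT1 (ENSMUSG00000021565, chr13:73679745-73704865), read 161, 459 and 229.9 CPM in SI-neg and 53.9, 37.9 and 60.9 CPM in SI-pos, a log2 change of -2.45 ± 0.46 (adjusted p = 0.00321). The proton-coupled peptide transporter gene Slc15a1 (PEPT1) read 154, 252 and 147 CPM in SI-neg and 53.0, 39.9 and 39.7 CPM in SI-pos, a change of -2.00 ± 0.32 (adjusted p = 0.00151). Both genes were highest in SI-neg 2. Slc7a7, part of the basolateral exit route for cationic amino acids, read 175, 135 and 177 CPM in SI-neg and 66.8, 39.8 and 31.9 CPM in SI-pos, a change of -1.69 ± 0.25 (adjusted p = 0.00108).

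The cystine transporter is a heteromer whose light chain is encoded by Slc7a9 and whose heavy chain by Slc3a1, and in SI-pos these 2 genes stood at different parts of their SI-neg levels. They are described together after their values were seen. Slc7a9 read 67.1, 88.8 and 91.1 CPM in SI-neg and 47.6, 63.7 and 56.4 CPM in SI-pos, that is 57.9, 77.3 and 68.5% of its SI-neg mean, and its log2 change was -0.45 ± 0.24 (adjusted p = 0.18). Slc3a1 read 28.3, 31.2 and 31.5 CPM in SI-neg and 7.59, 10.6 and 2.73 CPM in SI-pos, that is 9.0% to 34.9%, with a change of -2.00 ± 0.47 (adjusted p = 0.010). No test compared the 2 changes with each other. Slc1a1, the glutamate transporter EAAC1 (ENSMUSG00000024935, chr19:28835049-28913960), read 40.5, 22.7 and 55.7 CPM in SI-neg and 7.42, 6.5 and 2.28 CPM in SI-pos, a change of -2.70 ± 0.46 (adjusted p = 0.0021) that was the most negative of the transporters. Exons of Slc1a1 share 2631 bases, and those of Slc3a1 601 bases, with genes on the opposite strand (4430402I18Rik and Prepl), and since the library kit does not mark strand, reads from these stretches cannot be assigned with certainty.

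The lipid genes gave 11 lower of 13. Apoa1 (ENSMUSG00000032083, chr9:46228580-46230466) read 2384, 3689 and 2439 CPM in SI-neg and 828, 906 and 719 CPM in SI-pos, a log2 change of -1.72 ± 0.30 (adjusted p = 0.00218). Apob, the structural protein of the chylomicron, read 1279, 1495 and 1414 CPM in SI-neg and 544, 453 and 285 CPM in SI-pos, a change of -1.61 ± 0.27 (adjusted p = 0.00183). Apoa4, which is secreted with chylomicrons, read 756, 1637 and 929.7 CPM in SI-neg and 383, 358 and 309 CPM in SI-pos, a change of -1.61 ± 0.36 (adjusted p = 0.00801). For all 3 apolipoproteins the IL-25+ libraries lay below every IL-25- library. Slc27a4, a fatty acid transport protein with acyl-CoA synthetase activity, fell from 179 ± 61.0 to 58.0 ± 7.59 CPM (adjusted p = 0.00575). Mogat2, which rebuilds diacylglycerol from absorbed monoacylglycerol, fell from 110.3 ± 10.3 to 33.5 ± 4.29 CPM (adjusted p = 0.000502). The called changes of Fabp2, Dgat1, Mttp, which loads lipid onto Apob, and Apoc3 were -1.83, -1.85, -1.42 and -1.55 on the log2 scale. Apoa1, Apoc3 and Apoa4 lie side by side on chr9:46228580-46243459.

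A pair of lipid genes left the band by far, and they were singled out after their values were seen. Plb1, a brush border phospholipase B, read 9.7, 2.28 and 18.9 CPM in SI-neg and had 0 counts in all 3 SI-pos libraries. It passed the filter on low counts only through SI-neg, so only a lower call was open to it. With a floor of 3 counts over the group, Plb1 was at least 304.5-fold lower in SI-pos, and at least 169.4-fold lower without SI-neg 3, its highest library. Clps, the colipase gene, read 11.3, 153 and 21.8 CPM in SI-neg and 0.101, 0.0337 and 0.981 CPM in SI-pos, a log2 change of -7.46 ± 1.60 (adjusted p = 0.0102) that lost its call when no filter on low counts was used (adjusted p = 0.082, with 2.95e-05 to 0.082 over all settings). The SI-neg levels of both genes varied several-fold, Clps being highest in SI-neg 2 and Plb1 in SI-neg 3. Clps is best known from the pancreas, and 12 pancreatic acinar genes together summed to 1.11 to 10.6 CPM in the small intestine libraries, with Cpa1, Cpb1, Pnlip and Prss2 at 0 in each of them. The Paneth list, highest in SI-neg 2 like Clps, summed to 914, 3917 and 1086 CPM in SI-neg 1 to 3. Which cells the Clps RNA came from was not tested. The other lipid genes that missed the threshold were Cd36, the fatty acid translocase, at -1.02 ± 0.54 (adjusted p = 0.173), and Dgat2, an acyltransferase of triglyceride synthesis, at -1.31 ± 0.46 (adjusted p = 0.0511).

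Of the 5 remaining genes, 4 were lower. Rbp2 (ENSMUSG00000032454, chr9:98486115-98509781) read 1608, 1742 and 1825 CPM in SI-neg and 436, 561 and 478 CPM in SI-pos, a log2 change of -1.69 ± 0.21 (adjusted p = 0.000379). Alpi, the intestinal alkaline phosphatase, read 751, 1585 and 919 CPM in SI-neg and 219, 178 and 227 CPM in SI-pos, a change of -2.33 ± 0.36 (adjusted p = 0.0013). Ada, adenosine deaminase, read 107, 1134 and 119 CPM in SI-neg and 22.1, 14.4 and 87.2 CPM in SI-pos, and its change of -3.54 ± 1.34 did not pass (adjusted p = 0.0872). Without SI-neg 2, its highest library, the change of Ada was -1.20 (adjusted p = 0.245, with 0.0368 to 0.246 over all settings). Tm4sf20, which encodes a transmembrane protein of the intestine, and Slc46a1, the proton-coupled folate transporter, changed by -2.16 ± 0.23 (adjusted p = 0.000186) and -1.94 ± 0.41 (adjusted p = 0.00583). Leaving SI-neg 2 out of the whole comparison left 36 genes called lower.

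**Figure D2:**
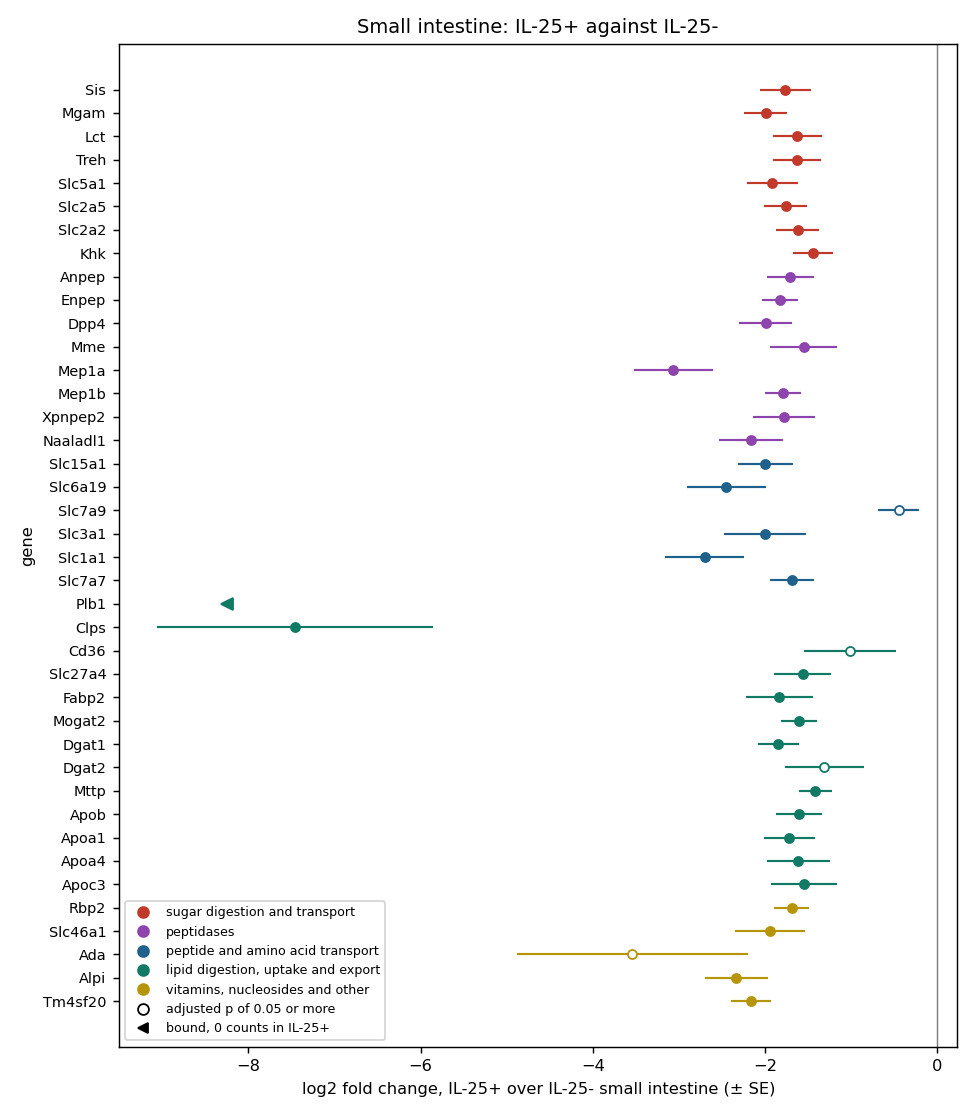
Fitted log2 fold change of each of the 40 genes between IL-25+ and IL-25- small intestine (± SE, 3 libraries a group), coloured by role, with open circles where the adjusted p was 0.05 or more and a triangle for the bound of Plb1. Points lie left of 0 throughout, most of them between -1 and -3, and the open circles are Slc7a9, Cd36, Dgat2 and Ada.

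A list of 43 further genes of the absorptive cell was read in the same comparison, to set the 40 genes beside others of the same apparatus. Of the 43, 28 were lower and 6 higher in SI-pos, with a median log2 fold change of -1.49. Over all genes tested, 18.8% were called lower and 18.1% higher in this comparison. The 6 that rose included Cdhr5, a protocadherin that links the tips of microvilli, at 9481, 10080.2 and 12758 CPM in SI-pos against 1449.6, 1839.8 and 1349 CPM in SI-neg, a change of 2.89 ± 0.28 (adjusted p = 0.00012). Fabp1, the liver-type fatty acid binding protein, read 4583, 6534 and 6709.9 CPM in SI-pos against 528, 829 and 785 CPM in SI-neg, a change of 3.16 ± 0.31 (adjusted p = 0.000126). The other 4, chosen after their values were seen, were Espn, an actin bundler, Cdhr2, the partner of Cdhr5, Slc52a3, a riboflavin transporter, and Ush1c, a scaffold of the tip links, with changes of 3.44, 2.33, 1.72 and 0.59. Further structural genes of the microvillus on the list, Vil1, Myo1a and Myo7b, did not pass, at 0.55, -0.40 and -0.16.

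Of 16 transcription factors known from the enterocyte, 7 were lower and 1 higher in SI-pos, with a median of -1.16. Here and for the lists that follow, the shares over all genes were 18.8% lower and 18.1% higher. Hnf4g, a nuclear receptor of the enterocyte programme, changed by -1.76 ± 0.21 (adjusted p = 0.000303), and Cdx1, an intestinal homeobox factor, rose by 1.86 ± 0.22 (adjusted p = 0.000292). Markers of other cells moved as follows. All 6 goblet genes and all 5 Paneth genes were lower, 4 of 6 enteroendocrine genes were lower, and 8 of 8 tuft cell genes, the gate gene Il25 among them, were higher, with Chat at 9.45, Pou2f3 at 5.92, Agr2 at -5.10, Spink4 at -4.37, Mptx2 at -7.43, Mmp7 at -5.23, Chga at -7.38 and Neurod1 at -7.37 on the log2 scale. Of 6 cholangiocyte genes tested, 4 were lower and 1 higher, with Krt19 at -2.65 and Slc4a4 at -2.05. None of the tested T cell (5), plasma cell (2) or acinar (3) genes passed with edgeR (0 at an unadjusted p under 0.05), and Cd3e, Cd8a, Ighm, Igkc, Ctrl and Ctrb1 had adjusted p-values of 0.605, 0.826, 0.548, 0.603, 0.234 and 0.712.

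The gallbladder held far less of these transcripts. The 40 genes took 0.0178, 0.0211 and 0.0224% of all counts in the 3 GB-pos libraries and 0.231, 0.104 and 0.0894% in the 3 GB-neg libraries. Relative to the SI-neg mean, the median gene stood at 0.0845, 0.226 and 0.266% in GB-pos and, in library order, at 6.71, 0.548 and 0.241% in GB-neg. Cholangiocyte genes summed to 4812 to 6341 CPM in GB-neg against 944 to 1504 CPM in SI-neg. The genes did not share 1 level. In both GB-neg 2 and GB-neg 3, 21 lay under 1% of the SI-neg mean, 8 lay above 10%, and the other 11 were in between or differed between the 2 libraries. These limits were chosen after the values were seen and carry no test.

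GB-neg 1 differed from the other 2 libraries of its group. For the 21 genes under 1% there, its median was 5.83% of the SI-neg mean, with a range from 1.3% for Clps to 21.3% for Plb1, against medians of 0.0817% in GB-neg 2 and 0.0595% in GB-neg 3. Sis read 127, 1.48 and 1.23 CPM in GB-neg 1 to 3, Anpep 338, 13.2 and 6.36 CPM and Apoa1 134, 2.19 and 1.4 CPM. Of the 8 genes above 10%, which were picked by their level in GB-neg 2 and GB-neg 3, GB-neg 1 was the highest of the 3 libraries for Dgat2, Slc27a4, Slc7a7 and Tm4sf20 and not for Mgam, Slc2a2, Dpp4 and Slc1a1. Dgat2 stood at 288, 219 and 108% and Slc27a4 at 24.4, 17.1 and 10.7% of the SI-neg mean. Plb1, at 21.3% in GB-neg 1, had 0 counts in GB-neg 2 and GB-neg 3, and was highest among SI-neg libraries in SI-neg 3. Other marker lists of the small intestine were read on the same scale. The enteroendocrine list summed to 4.9, 0.0565 and 0.0436% of its SI-neg mean in GB-neg 1 to 3, the T cell list to 3.98, 1.29 and 0.164% and the plasma cell list to 31.1, 1.49 and 0.663%, each highest in GB-neg 1. The goblet list, at 3.9, 4.19 and 2.74%, and the Paneth list, at 8.38, 15.95 and 4.66%, were not highest there as sums. Their tested genes did not all follow the sums. Leaving out GB-neg 1 moved the log2 change from GB-neg to GB-pos from -3.73 to 0.43 for Lyz1. For Itln1, Ang4, Muc2 and Clca1 it moved from -3.25, -2.67, -1.99 and -1.57 to 0.29, 1.28, 1.28 and 0.36. For Agr2 it moved from -2.80 to -1.46. For Mmp7, Fcgbp, Tff3 and Spink4 it changed little, from -2.84, -3.09, -4.98 and -3.67 to -3.09, -3.15, -5.14 and -3.97. Whether cells or RNA of the small intestine were carried into GB-neg 1 was not tested.

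**Figure D3:**
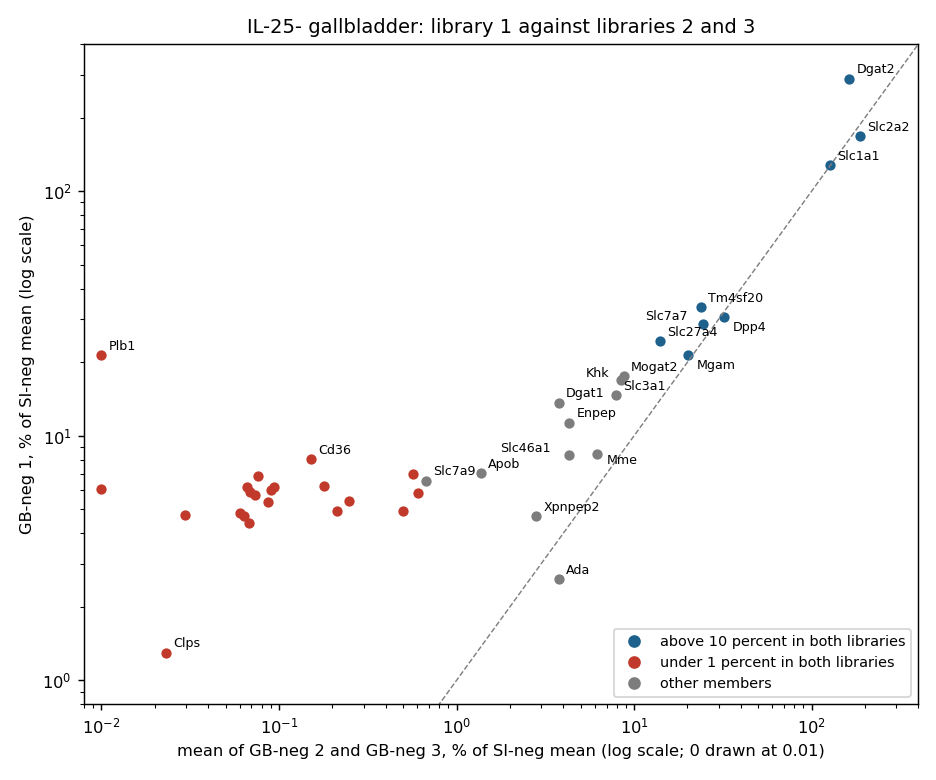
Level of each of the 40 genes in GB-neg 1 against its mean in GB-neg 2 and GB-neg 3, both as percent of the SI-neg mean on log axes, with the dashed line at equality. Genes under 1% in GB-neg 2 and GB-neg 3 form a band between 1.3% and 21.3% in GB-neg 1, whereas the 8 genes above 10% lie closer to the line.

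Of the 8 genes above 10%, 6 were lower in the IL-25+ cells of the gallbladder, where 13.2% of all 14389 genes tested were called lower. The 8 were picked for their level in GB-neg libraries that also enter this comparison. That choice favours lower values in GB-pos, so the count of 6 cannot serve as a test of these genes as a set. Mgam read 255, 258 and 219 CPM in the GB-neg libraries and 12.3, 25.3 and 25.2 CPM in the GB-pos libraries. Slc2a2 read 173, 167 and 219 CPM in GB-neg and 12.9, 18.3 and 15.4 CPM in GB-pos, and Dpp4 159, 161 and 170.0 CPM in GB-neg and 6.98, 11.5 and 7.95 CPM in GB-pos. No GB-pos library of these genes came near the lowest GB-neg library. Slc2a2 thereby stood at 168, 162 and 212% of its SI-neg mean, above the small intestine, while Mgam stood at 21.5, 21.7 and 18.5% and Dpp4 at 30.7, 31.1 and 32.8%. Slc1a1 read 50.7, 62.9 and 37.6 CPM in GB-neg and 1.27, 3.59 and 3.33 CPM in GB-pos, Dgat2 49.2, 37.4 and 18.5 CPM and 2.89, 0.802 and 2.78 CPM, and Tm4sf20 82.7, 41.6 and 76.3 CPM and 6.41, 3.88 and 6.59 CPM. The opposite-strand gene 4430402I18Rik, which shares exon bases with Slc1a1, read 15.4, 12.1 and 27.3 CPM in GB-neg.

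Slc7a7 and Slc27a4, the other genes of the 8, did not pass between the gates. Slc7a7 read 46.6, 41.6 and 38.1 CPM in GB-neg and 27.9, 38.6 and 31.9 CPM in GB-pos, and the groups just overlapped, at a log2 change of -0.51 ± 0.27 (adjusted p = 0.209). Slc27a4 read 43.6, 30.7 and 19.2 CPM in GB-neg and 32.5, 44.5 and 22.8 CPM in GB-pos, with overlapping groups and a change of -0.01 ± 0.35 (adjusted p = 0.993). Slc7a7 shares 232 exon bases with Oxa1l on the opposite strand, so part of its level is uncertain. Khk read 20.1, 17.2 and 2.95 CPM in GB-neg and 19.9, 6.67 and 13.2 CPM in GB-pos, and Mogat2 19.3, 13.4 and 5.93 CPM and 10.3, 0.97 and 10.8 CPM. Both groups of both genes overlapped and neither passed (adjusted p = 0.948 and 0.449, or 0.846 and 0.726 without GB-neg 1). These 4 misses do not show equal levels, since the standard errors of the log2 changes were 0.27, 0.35, 0.64 and 0.79.

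The other 11 genes belonged to neither class, and the levels of several of them varied among the GB-neg libraries. Mme read 68.1, 90.1 and 9.85 CPM in GB-neg and 8.81, 8.73 and 7.4 CPM in GB-pos, so that GB-neg 3 stood near the IL-25+ libraries. Apob read 98.3, 20.8 and 17.6 CPM in GB-neg and 1.16, 5.23 and 2.2 CPM in GB-pos, and here GB-neg 1 was the highest. Ada read 11.7, 22.2 and 12.1 CPM in GB-neg and 3.17, 3.12 and 3.46 CPM in GB-pos, with every GB-neg library above every GB-pos library. Dgat1, which adds the last fatty acid to triglyceride, read 29.4, 11.6 and 4.64 CPM in GB-neg and 4.76, 2.36 and 10.3 CPM in GB-pos, and its change of -1.45 ± 0.72 (adjusted p = 0.181) did not pass, nor did -0.64 (adjusted p = 0.645) without GB-neg 1. The apical aminopeptidases Enpep and Xpnpep2 read 38.0, 11.6 and 17.4 CPM and 1.7, 2.03 and 0 CPM in GB-neg. Enpep was highest in GB-neg 1, and Xpnpep2 had 0 counts in GB-neg 3.

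**Figure D4:**
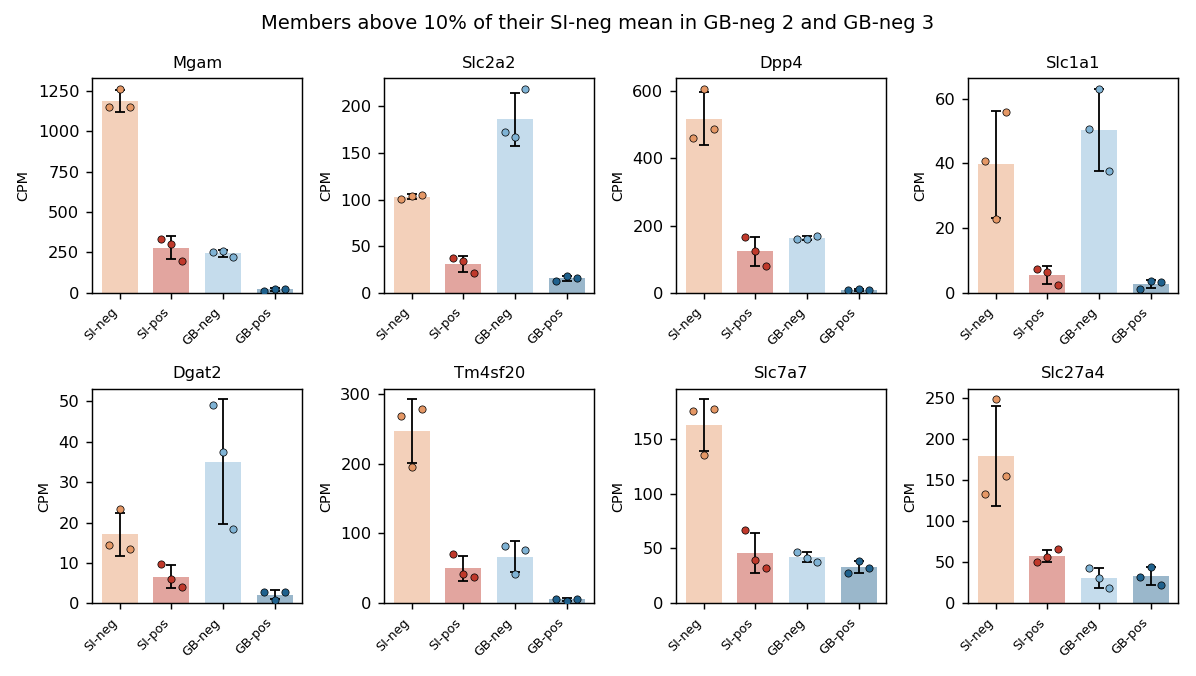
CPM of the 8 genes above 10% of their SI-neg mean in GB-neg 2 and GB-neg 3, in the 4 groups, with bars for means, error bars for SD and points for the 3 libraries of a group. For Mgam, Slc2a2, Dpp4, Slc1a1, Dgat2 and Tm4sf20 the GB-pos libraries lie well below the GB-neg libraries, while for Slc7a7 and Slc27a4 the gallbladder groups overlap.

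The gallbladder gate comparison tested 29 of the 40 genes, the other 11 being under the filter on low counts (Treh, Slc2a5, Mep1a, Mep1b, Naaladl1, Slc7a9, Plb1, Clps, Cd36, Apoc3 and Slc46a1). Of the 29, 11 were lower and 0 higher in GB-pos with edgeR (0 at an unadjusted p under 0.05 and 0 with DESeq2), where 13.2% of all 14389 genes tested were called lower and 13.1% higher. Without GB-neg 1, 9 were lower (8.99% of all genes), all among the 11. The sugar genes Slc2a2 and Mgam changed by -3.77 ± 0.31 (adjusted p = 6.72e-05) and -3.69 ± 0.33 (adjusted p = 9.27e-05), and of the peptidases Dpp4 changed by -4.38 ± 0.31 (adjusted p = 3.68e-05) and Mme by -2.81 ± 0.63 (adjusted p = 0.011). Slc1a1 changed by -4.34 ± 0.47 (adjusted p = 0.000285), Tm4sf20 by -3.75 ± 0.41 (adjusted p = 0.000283) and Dgat2 by -4.12 ± 0.57 (adjusted p = 0.000968). Each of these 7 calls held without GB-neg 1, as did Apob, at -4.04 ± 0.80 (adjusted p = 0.00633) with all libraries and -2.93 (adjusted p = 0.0207) without it.

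The remaining 3 calls each ended when some 1 library was left out. Ada changed by -2.38 ± 0.48 (adjusted p = 0.00679) but had an adjusted p of 0.0589 without GB-neg 2 and 0.117 with all 12 libraries in 1 fit. Slc6a19 changed by -3.93 ± 1.14 (adjusted p = 0.033), with an adjusted p of 0.326 without GB-neg 1 and 0.0701 to 0.0908 when any GB-pos library was left out. Slc3a1 changed by -6.11 ± 1.57 (adjusted p = 0.0204), with 0.0651 without GB-neg 1, 0.0571 without GB-neg 2 and 0.0518 without GB-pos 2. It read 4.45, 2.68 and 2.12 CPM in GB-neg and 0, 0 and 0.129 CPM in GB-pos, while the overlapping gene Prepl read 37.1, 31.5 and 40.7 CPM in the same GB-pos libraries. Slc3a1 thus passed the filter on low counts only through GB-neg, so only a lower call was open to it. Sis, which was not called, had a log2 change of -4.56 ± 1.74 (adjusted p = 0.0913) when all libraries were used and 0.21 (adjusted p = 0.94) without GB-neg 1, with 0.0545 to 0.94 over all settings.

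Markers of other cells moved between the same gallbladder libraries. Over all genes tested, 13.2% were called lower and 13.1% higher in GB-pos, and 8.99% lower without GB-neg 1. Of 7 cholangiocyte genes, 6 were lower and 1 higher in GB-pos, with and without GB-neg 1, and the list summed to 1880.2 to 2480.1 CPM in GB-pos against 4812 to 6341 CPM in GB-neg. Of 6 goblet genes 3 were lower, again with and without GB-neg 1, the list summing to 57.8 to 123 CPM in GB-pos and 564 to 863 CPM in GB-neg. Mitochondrially encoded genes took 7.13% to 8.83% of counts in GB-pos and 11.2% to 25.001% in GB-neg, and with them taken out 11 digestion genes were lower (12.7% of all genes). The part of the other cell types in the change of the digestion genes was not tested.

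Gallbladder IL-25+ cells were next set against small intestine IL-25+ cells, a comparison that shares the SI-pos libraries with the first one. Of 38 genes tested, 35 were lower and 0 higher in GB-pos with edgeR (0 at an unadjusted p under 0.05 and 0 with DESeq2), where 13.4% of all 14155 genes tested were called lower and 14.8% higher. Some of the 38 passed the filter on low counts only through SI-pos, such as Slc3a1, Slc7a9 and Cd36. These had 4, 5 and 6 counts over GB-pos, so for such genes only a lower call was possible. The median log2 fold change of the tested genes was -7.29, against 0.05 over all genes tested. Most of the tested genes thus stood in the IL-25+ gallbladder fraction at a small part of their level in the IL-25+ small intestine fraction. Exceptions included Slc7a7, at means of 46.2 CPM in SI-pos and 32.8 CPM in GB-pos, Slc27a4, at 58.0 and 33.3 CPM, and Slc2a2, at 31.0 and 15.5 CPM. Anpep read 1996, 1652 and 930.3 CPM in SI-pos and 1.52, 13.4 and 6.56 CPM in GB-pos, a change of -8.05 ± 0.89 (adjusted p = 0.000698). Apoa1 read 828, 906 and 719 CPM in SI-pos and 11.9, 2.91 and 9.56 CPM in GB-pos, a change of -6.98 ± 0.48 (adjusted p = 7.66e-06). Rbp2 read 436, 561 and 478 CPM in SI-pos and 0.529, 1.81 and 2.36 CPM in GB-pos, a change of -8.61 ± 0.48 (adjusted p = 2.17e-06).

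Some genes were at the counting limit in GB-pos. The folate transporter gene Slc46a1 had 1 count over the 3 GB-pos libraries and 1189 over the SI-pos libraries, a ratio of 1123 (exact binomial 95% interval 201.2 to 44390, counting error only). Mep1a had 1 count against 206, a ratio of 194.6 (34.53 to 7722), and Apoc3 had 3 against 1592, a ratio of 501.2 (171.2 to 2433). At the other end, Slc27a4 changed by -1.12 ± 0.29 (adjusted p = 0.0153), Slc2a2 by -1.32 ± 0.32 (adjusted p = 0.0123) and Mogat2 by -2.51 ± 0.67 (adjusted p = 0.0184). Their calls were the ones that leaving out an SI-pos library ended, with adjusted p-values of 0.0547 and 0.0648 for Slc27a4 without SI-pos 2 or SI-pos 3, 0.0631 and 0.0633 for Slc2a2 without SI-pos 1 or SI-pos 2, and 0.0569 and 0.0588 for Mogat2 without the same libraries. The 3 tested genes that did not pass were Slc1a1 at -1.29 ± 0.74 (adjusted p = 0.233), Slc7a7 at -0.80 ± 0.30 (adjusted p = 0.0769) and Dgat2 at -1.93 ± 0.72 (adjusted p = 0.0718). Of the further absorptive list, 27 of 42 tested were lower and 1 higher, where 13.4% of all genes tested were called lower and 14.8% higher.

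In the IL-25- cells the count of called genes changed with GB-neg 1. With all libraries, 23 of 40 genes were lower and 1 higher in GB-neg than in SI-neg, where 12.1% of all 15079 genes tested were called lower and 14.3% higher. Genes such as Mep1a, with 0 counts in GB-neg 2 and GB-neg 3, passed the filter on low counts only through SI-neg. For them only a lower call was possible. Without GB-neg 1, 37 were lower and 1 higher (11.6% of all genes each way), and leaving out SI-neg 1, SI-neg 2, SI-neg 3, GB-neg 2 or GB-neg 3 instead gave 14, 14, 13, 15 and 17 lower, where 7.33, 8.18, 7.38, 6.56 and 8.77% of all genes were called lower. Sis illustrates the change of estimate, from -5.77 ± 2.07 (adjusted p = 0.101) with all libraries to -10.56 (adjusted p = 1.06e-05) without GB-neg 1. Mgam changed by -2.37 ± 0.22 (adjusted p = 0.000332) with all libraries and by -2.33 (adjusted p = 0.00071) without GB-neg 1. Slc2a2 was the gene called higher in gallbladder, at 0.81 ± 0.25 (adjusted p = 0.0467). Its 3 GB-neg libraries lay above all SI-neg libraries, but the adjusted p was 0.0703 with DESeq2 and, with edgeR, 0.0578 to 0.158 without SI-neg 1, SI-neg 2, SI-neg 3, GB-neg 2 or GB-neg 3 in turn. Slc1a1 and Dgat2 did not pass even without GB-neg 1, at 0.36 (adjusted p = 0.516) and 0.62 (adjusted p = 0.385).

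Whether the gate difference itself differed between the tissues was tested over all 12 libraries. The difference was more negative in gallbladder than in small intestine for 8 of 40 genes and less negative for 0 with edgeR (2 at an unadjusted p under 0.05 and 2 with DESeq2), where 5.6% of all 16636 genes tested were called more negative and 3.63% more positive. Mgam, Slc2a2 and Dpp4 had differences of -1.78 ± 0.40 (adjusted p = 0.013), -2.22 ± 0.38 (adjusted p = 0.00259) and -2.46 ± 0.42 (adjusted p = 0.00259) on the log2 scale, and these 3 were called in every setting tried. IL-25+ cells of the gallbladder thus held a smaller share of the level of their IL-25- neighbours for these genes than IL-25+ cells of the small intestine did. The remaining 5 were Tm4sf20, Slc7a9, Slc3a1, Dgat2 and Slc46a1, whose calls each ended when at least 1 library was left out. Without GB-neg 1, 6 of the 8 held, Dgat2 (adjusted p = 0.0547) and Slc46a1 (0.054) were lost, and 5 genes were called less negative in gallbladder, namely Mttp, Apoa1, Alpi, Mep1b and Plb1 (4.74% of all genes more negative and 4.15% more positive). In that fit Apoa1 differed by 3.59 (adjusted p = 0.00323) and Mttp by 2.51 (adjusted p = 0.0124), with Apoa1 at 11.9, 2.91 and 9.56 CPM in GB-pos and Mttp at 7.22, 6.33 and 20.7 CPM in GB-pos and 52.1, 4.19 and 4.35 CPM in GB-neg. Plb1 had 1 count over GB-pos and 0 in GB-neg 2 and GB-neg 3, so no gallbladder gate difference stands behind its call. Mep1b, Plb1, Slc7a9 and Slc46a1 were under the filter on low counts in the gallbladder gate comparison. They entered the test between tissues through their small intestine counts.

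Sequences just upstream of the genes are shown for 4 members, because Sis and Mgam split similar sugar bonds and both fell in IL-25+ small intestine cells, yet Sis was under 1% and Mgam above 10% of the small intestine level in GB-neg 2 and GB-neg 3, while Treh and Fabp2 add 1 more gene of sugar digestion and 1 of fat absorption with the low gallbladder pattern of Sis. Each runs from 250 bases before to 50 bases after the start of the gene, 5′ to 3′ on the gene's own strand, from RefSeq on build GRCm38.p6. Sis is on the minus strand at chr3:72967814-72968113, Mgam on the plus strand at chr6:40628581-40628880, Treh on the plus strand at chr9:44672983-44673282 and Fabp2 on the plus strand at chr3:122894822-122895121. Capitals mark matches to short words known for intestinal factors on either strand: TTTATTG for CDX factors in Sis and Fabp2, AGATAAG for GATA factors in Mgam and CAAAGTC for HNF4 in Treh. In Sis, in Mgam and at the later match in Treh the word is on the other strand, so the capitals are its reverse complement.
Sis: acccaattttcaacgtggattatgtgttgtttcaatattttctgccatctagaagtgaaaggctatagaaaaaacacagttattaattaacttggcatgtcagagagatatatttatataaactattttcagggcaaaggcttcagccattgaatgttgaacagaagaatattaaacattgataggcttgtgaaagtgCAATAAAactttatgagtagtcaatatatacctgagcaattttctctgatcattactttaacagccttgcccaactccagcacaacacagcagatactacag
Mgam: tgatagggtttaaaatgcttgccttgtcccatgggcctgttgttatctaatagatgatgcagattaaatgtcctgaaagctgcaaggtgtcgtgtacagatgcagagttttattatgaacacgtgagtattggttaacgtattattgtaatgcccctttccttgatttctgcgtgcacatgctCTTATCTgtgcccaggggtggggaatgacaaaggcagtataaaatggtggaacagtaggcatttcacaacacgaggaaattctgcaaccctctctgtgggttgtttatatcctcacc
Treh: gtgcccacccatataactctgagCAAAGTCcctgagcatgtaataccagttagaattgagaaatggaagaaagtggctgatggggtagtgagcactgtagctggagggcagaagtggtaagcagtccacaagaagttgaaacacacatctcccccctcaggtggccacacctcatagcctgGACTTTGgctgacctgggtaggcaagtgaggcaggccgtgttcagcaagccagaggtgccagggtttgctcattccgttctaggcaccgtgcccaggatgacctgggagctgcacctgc
Fabp2: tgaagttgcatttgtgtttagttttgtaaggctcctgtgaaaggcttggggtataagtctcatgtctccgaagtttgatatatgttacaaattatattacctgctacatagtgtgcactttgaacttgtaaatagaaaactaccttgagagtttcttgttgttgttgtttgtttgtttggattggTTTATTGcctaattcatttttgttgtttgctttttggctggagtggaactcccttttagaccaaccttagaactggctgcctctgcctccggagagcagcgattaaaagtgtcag

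Promoters of 32 of the 40 genes were found by symbol, and these were searched on both strands beside the promoters of 27025 genes. For the 32 the listed start nearest the GENCODE start was taken, and for the 27025 the first listed start. The 2 sets of windows were thus chosen in different ways. The windows of Mme, Cd36 and Anpep lie 53673, 52904 and 12848 bases from the GENCODE start. Those of Slc6a19, Plb1, Rbp2 and Mttp lie 12228, 6375, 4421 and 1549 bases from it. The matches counted for Plb1 and Rbp2 are therefore not near the GENCODE start of the gene. CAAAGTC was in 4 of 32 (12.5%, Treh, Slc3a1, Rbp2 and Alpi) against 4.363% of all promoters, and TTTATTG in 4 of 32 (12.5%, Sis, Slc3a1, Fabp2 and Slc46a1) against 4.844%. The word TTTATGG, also used for CDX factors, was in 2 (6.25%, Mep1a and Plb1) against 2.764%, and AGATAAG in 2 (6.25%, Mgam and Slc7a9) against 3.075%. A longer HNF1 word was in 0 of 32 against 0.4366%. The CDX words share their first 5 letters and cannot both match at 1 position. A match describes letters in the window and is not a binding site, and these shares carry no test.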

How the data were processed

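The authors deposited a table of raw read counts per Ensembl gene, made from STAR 2.7.2b alignments to GRCm38 per the submitters' processing notes, which also list DESeq2 1.26. The read counter, strand setting and annotation release are not given in the sources used here. Per the labels' protocols, cDNA amplified with a NuGen kit went into Nextera XT libraries, a kit that keeps no strand, for single-end 50 bp reads. Columns that match no library's label, 11 in all, were left aside.

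Levels are CPM of the library total, and CPM per kb uses the union of exons in GENCODE M21. For each comparison edgeR 4.0.16 (R 4.3.3) was fitted to the libraries of the groups compared, and to all 12 for the difference between tissues. The fit used TMM scaling, filterByExpr with a minimum count of 10 and a robust quasi-likelihood model. F tests were two-sided with Benjamini-Hochberg adjustment over all genes tested and a threshold of 0.05, and the procedure was tested on simulated data. Log2 fold changes carry ± SE. The limit that 0 counts allow, 3 counts, is 0.0463 to 0.127 CPM in a library. Replicate libraries differed beyond counting noise (chi-square over its degrees of freedom 45.3 or more).

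The 40 genes, the further lists, the choice of libraries per fit and the rule for named genes were chosen with earlier results of these data known. That rule gives values in every library for the 3 genes of each role with the highest SI-neg level and for those with a median of at least 10 CPM over GB-pos and GB-neg 2 and 3, and 2 genes of each further list by adjusted p. Others with values were chosen after those were seen. Alternatives were RLE size factors, DESeq2 1.42.0, no filter and a stricter filter (5 CPM in 3 libraries), all 12 libraries in 1 fit, the replicate number as a block, no mitochondrial genes, and leaving out each library. A shared fit without GB-neg 1 was added after seeing the data.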

Additional observations from a re-analysis of the deposited data

Results flagged for a closer look

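For 8 of the 40 genes the difference between IL-25+ and IL-25- cells was not the same in gallbladder as in small intestine, by the edgeR test of that difference over 12 libraries. In each, the log2 fold change was more negative in gallbladder. Mgam, maltase-glucoamylase, differed by -1.78 ± 0.40 (adjusted p = 0.013, 0.00283 to 0.043 over the alternatives, and -1.82 with an adjusted p of 0.0168 without GB-neg 1), Slc2a2, the GLUT2 gene, by -2.22 ± 0.38 (adjusted p = 0.00259, 0.000135 to 0.00946 over the alternatives, and -2.35 with an adjusted p of 0.00255 without GB-neg 1) and Dpp4, dipeptidyl peptidase 4, by -2.46 ± 0.42 (adjusted p = 0.00259, 0.000100 to 0.00904 over the alternatives, and -2.56 with an adjusted p of 0.00274 without GB-neg 1). In each of these 3, all GB-pos libraries lay below all GB-neg libraries and all SI-pos libraries below all SI-neg libraries.

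The light chain of the cystine transporter, Slc7a9, differed by -4.83 ± 1.31 (adjusted p = 0.0408, 0.00173 to 0.125 over the alternatives, and -3.05 with an adjusted p of 0.0391 without GB-neg 1), and its heavy chain Slc3a1 by -4.13 ± 1.08 (adjusted p = 0.0292, 0.00229 to 0.0961 over the alternatives, and -3.85 with an adjusted p of 0.047 without GB-neg 1). Slc7a9 read 0.0705, 0.0844 and 0.0323 CPM in GB-pos 1 to 3 and 5.39, 0.193 and 0.916 CPM in GB-neg 1 to 3, so its gallbladder levels are near the counting limit in most libraries. The acyltransferase gene Dgat2 differed by -2.91 ± 0.74 (adjusted p = 0.0251, 0.00449 to 0.114 over the alternatives, and -2.66 with an adjusted p of 0.0547 without GB-neg 1), Slc46a1, the folate transporter, by -5.79 ± 1.56 (adjusted p = 0.0358, 0.00126 to 0.103 over the alternatives, and -5.38 with an adjusted p of 0.054 without GB-neg 1) and Tm4sf20 by -1.67 ± 0.43 (adjusted p = 0.0293, 0.00675 to 0.0865 over the alternatives, and -1.59 with an adjusted p of 0.0498 without GB-neg 1). Slc46a1 read 4.59, 4.55 and 0.172 CPM in GB-neg 1 to 3 and had 1 count over GB-pos. Both Slc7a9 and Slc46a1 were under the filter on low counts in the gallbladder gate comparison and entered this test through their small intestine counts.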

How the results depend on the processing

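The count of 36 lower genes in the small intestine gate comparison was 12 with all 12 libraries in 1 fit and 35 to 37 in the other settings except the shared fit without GB-neg 1. In the gallbladder gate comparison 11 of 29 genes tested became 17 of 40 with all 12 libraries in 1 fit. Of all genes, 1894 of 14389 and 2390 of 16636 were called lower in these fits. In the shared fit without GB-neg 1 there was 1 gene higher, Apoa1. Lower genes in gallbladder IL-25- cells were 23, and 11 with no filter on low counts, 36 with all 12 libraries in 1 fit, 37 in the shared fit without GB-neg 1 and 37 without SI-neg 3 and GB-neg 1. Of all genes tested, 1823 of 15079 were called lower in the main fit. In the order of these settings it was 1501 of 25485, 1939 of 16636, 1785 of 17634 and 1540 of 15117. Leaving out 1 library each gave 13 to 37. The 1 gene higher there, Slc2a2, was 0 with RLE size factors, DESeq2, the stricter filter, the replicate block, and without SI-neg 3 and GB-neg 1, and 0 to 1 with 1 library left out. All genes called in that comparison, 3973, ranged from 2603 to 3688 with 1 library left out. In the test of the difference between tissues, 8 more negative genes became 5 with the replicate block, 3 without SI-neg 3 and GB-neg 1, and 3 to 8 with 1 library left out. Of all genes, 807 of 16636 were more negative with the block and 662 of 17282 without SI-neg 3 and GB-neg 1. The 0 more positive became 1 with RLE size factors, 2 with DESeq2, 3 without SI-neg 3 and GB-neg 1, and 0 to 5 with 1 library left out. All genes called there were 1536, and 2364 with DESeq2. RLE size factors moved the median of all genes in that test from -0.11 to 0.06, and the share of called genes that were more positive from 39.3% to 51.2%, or 51.6% with DESeq2. The median level in SI-pos 1, 32.1% of the SI-neg mean, was 26.9% when mitochondrially encoded genes were taken out of the totals. The cause of these shifts was not tested, beyond the libraries and genes each setting leaves out.

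Same-numbered libraries of the groups compared had deviations from their group means that correlated at -0.052 to 0.162. For libraries of different numbers the values were -0.179 to 0.0957. No clear pairing by number was seen, but this cannot show whether same-numbered libraries came from the same mice. With the replicate number as a block, the small intestine gate gave 36 lower, the gallbladder gate 11, tissue in IL-25+ cells 35 and tissue in IL-25- cells 17. Of all genes, 2479 of 14647, 1816 of 14389, 1660 of 14155 and 1301 of 15079 were lower in these fits. Over every digestion gene tested in a comparison, called or not, there were 2889 values under alternatives. Of these, 2529 kept their direction and side of the threshold, 171 lost a call, 110 gained one and 79 changed direction. The changes of direction were 36 in the gallbladder gate and 43 in the difference between tissues, 63 of them in settings without GB-neg 1, and 0 were of a gene called as reported. Among genes named with a value, the log2 changes in the gallbladder gate ranged with 1 library left out from -5.13 to 0.21 for Sis, -3.07 to 1.97 for Apoa1, -0.49 to 0.28 for Khk and -0.27 to 0.25 for Slc27a4. They were 0.13, 1.89, 0.20 and 0.16 in the shared fit without GB-neg 1, and 0.21, 1.97, 0.28 and 0.24 without SI-neg 3 and GB-neg 1. Khk was 0.0934 with the replicate block. Slc27a4 was 0.0297 with RLE size factors, 0.0295 with DESeq2, 0.0244 with no filter and 0.0333 without mitochondrial genes. The differences between tissues ranged with 1 library left out from -1.50 to 3.59 for Apoa1, -0.31 to 2.51 for Mttp, -2.40 to 2.62 for Alpi and -3.73 to 1.54 for Mep1b. Without SI-neg 3 and GB-neg 1, Apoa1, Alpi and Mep1b were at 3.75, 2.80 and 1.58, and Apoa1 was at 0.21 with the replicate block. With 3 libraries a group and 0 or few counts of many of these genes in gallbladder, differences there were often not detectable at this depth.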

Other observations

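The further absorptive genes moved in both directions in gallbladder, and those named here were chosen after their values were seen. Of 38 tested, 6 were higher and 13 lower in GB-pos than in GB-neg, and 7 higher and 7 lower without GB-neg 1. Over all genes tested, 13.1% were called higher and 13.2% lower. Without GB-neg 1, 1544 of all 14979 genes were called higher and 1347 lower, so the counts higher lay near the share of all genes. Cdhr2, a tip-link protocadherin of microvilli, read 2130.0, 1960.0 and 1972 CPM in GB-pos 1 to 3 and 32.3, 2.32 and 1.15 CPM in GB-neg 1 to 3, and its log2 change was 7.39 ± 1.24 (adjusted p = 0.00338), or 10.01 (adjusted p = 2.22e-06) without GB-neg 1. Its partner Cdhr5 read 3459, 3884 and 2997 CPM in GB-pos and 136, 50.0 and 54.7 CPM in GB-neg, a change of 5.32 ± 0.40 (adjusted p = 4.32e-05), or 5.81 (adjusted p = 5.82e-06) without GB-neg 1. The actin bundler Espn changed by 6.48 ± 0.48 (adjusted p = 4.32e-05), or 6.70 (adjusted p = 6.26e-05) without GB-neg 1. These 3 genes were higher in the IL-25+ fraction of both tissues. Fabp1 did not pass in gallbladder, at -1.18 ± 0.70 (adjusted p = 0.265), or -0.15 (adjusted p = 0.907) without GB-neg 1, with 4583, 6534 and 6709.9 CPM in SI-pos and 30.9, 13.5 and 30.2 CPM in GB-pos. The gate comparisons of the 2 tissues share no library.

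Among the enterocyte transcription factors, 3 of 12 tested were higher and 6 lower in GB-pos than in GB-neg, and 4 higher and 5 lower without GB-neg 1. The shares over all genes are those given for the further absorptive genes. Cdx1, an intestinal homeobox factor, read 46.7, 18.6 and 16.9 CPM in GB-pos 1 to 3 and 1.7, 0.0645 and 0.0286 CPM in GB-neg 1 to 3, a change of 5.42 ± 1.25 (adjusted p = 0.0126), or 8.90 (adjusted p = 0.000217) without GB-neg 1. Its relative Cdx2 read 23.9, 27.9 and 27.2 CPM in SI-pos, 40.3, 30.6 and 39.3 CPM in SI-neg and 0.141, 0.0844 and 0.162 CPM in GB-pos. Hnf4a, a nuclear receptor that acts on many digestion genes, read 575, 479 and 376 CPM in GB-pos and 369, 212 and 133 CPM in GB-neg, and Hnf4g 1.41, 8.06 and 8.98 CPM and 45.1, 29.8 and 32.2 CPM.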
